A study of Mus musculus with 6 samples.

Results

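The Reelin signalling genes were 7: the ligand gene Reln, the receptor genes Lrp8 and Vldlr, the adaptor gene Dab1, the kinase gene Fyn and the adaptor genes Crk and Crkl. Clusters of NOVA-bound RNA were taken as members when they shared at least 1 nt with the annotated span of one of these genes, on its strand. This gave 39 of 9988 NOVA1 clusters and 156 of 36591 NOVA2 clusters. NOVA1 and its close relative NOVA2 are splicing regulators of neurons that bind RNA directly. HITS-CLIP, in which ultraviolet light crosslinks RNA to protein and an antibody then recovers the protein with its RNA fragments for sequencing, had been done on wild-type cortex of CD1 mice at embryonic day 18.5. There were 3 libraries for NOVA1 and 3 for NOVA2, and each deposited list pooled the libraries of one protein. All animals were wild type, so the lists compare both proteins in the same tissue and not an altered with an unaltered state.

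Reelin is a large secreted protein, made in the embryonic cortex by the Cajal-Retzius cells near the brain surface, that guides how migrating neurons settle into layers. It binds the lipoprotein receptors encoded by Lrp8 (also called ApoER2) and Vldlr, whose tails hold the adaptor protein DAB1. Kinases of the Src family, FYN among them, then phosphorylate DAB1, which recruits CRK and CRKL to pass the signal on. Dab1 pre-mRNA is alternatively spliced, and the exon pair known as 7b and 7c is among its alternative exons.

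The lists gave a tag count for each cluster, which is the number of unique reads after removal of PCR duplicates, or the maximum depth of such reads. The lists carry no header that settles it. The study names its threshold a peak height, which points to a depth, and sums and shares of tags below would then be those of depths. All clusters held at least 10 tags. Counts were pooled by the authors, so values per library, and with them the spread between libraries, were not available to compare against. No p-value was computed. The lists held 304703 NOVA1 and 1309270 NOVA2 tags, a ratio of 4.30, and a fixed threshold admits weaker sites in the list with more tags. A tag count rises with the amount of a transcript as well as with its occupancy, and in whole cortex fewer cells of a type and less RNA per cell cannot be told apart. Of the marker genes listed for the cells of the tissue, 5 of 6 genes of cortical projection neurons, 2 of 5 of interneurons, 2 of 5 of glia and progenitors, 1 of 4 of endothelium and 0 of 3 of microglia held a NOVA2 cluster. A NOVA1 cluster was held by 4, 2, 2, 0 and 0 of them. Among all protein-coding genes the shares were 22.7% for NOVA2 and 12.7% for NOVA1. Of 3 genes listed from outside the brain, 0 held a cluster. Gene spans were not matched in these counts. Of 5 Cajal-Retzius markers other than Reln, 0 held a cluster of either protein.

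Sequences that carry the main results come first. They are shown 5' to 3' on the strand of the gene, read from the mm9 genome, with every YCAY in capitals. YCAY, where Y is C or U (T in the genome), is the motif that NOVA proteins bind. Its forms that begin with C are CCAC and CCAT, and those that begin with a uracil are read in the genome as TCAC and TCAT. Only the strand of the cluster was searched, and motifs may share bases. The first pair lies at the alternative exons of Dab1. It is the NOVA2 cluster of 251 tags at chr4:104386032-104386253, whose last 27 bases (196 to 222) are the start of exon 7b, and the first 300 bases of the NOVA2 cluster of 158 tags at chr4:104386280-104386603, in which bases 90 to 143 are exon 7c:
Dab1, before exon 7b: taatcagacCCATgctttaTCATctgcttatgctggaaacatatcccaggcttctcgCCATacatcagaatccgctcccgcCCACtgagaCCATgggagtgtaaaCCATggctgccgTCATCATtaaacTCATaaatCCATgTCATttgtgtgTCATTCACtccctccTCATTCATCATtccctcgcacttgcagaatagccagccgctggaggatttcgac
Dab1, after exon 7b: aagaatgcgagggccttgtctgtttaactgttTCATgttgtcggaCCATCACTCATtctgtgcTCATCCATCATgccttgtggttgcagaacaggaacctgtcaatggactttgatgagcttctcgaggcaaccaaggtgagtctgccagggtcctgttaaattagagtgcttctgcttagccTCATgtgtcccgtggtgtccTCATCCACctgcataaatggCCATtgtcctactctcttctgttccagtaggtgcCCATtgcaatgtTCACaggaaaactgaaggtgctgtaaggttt
The first of these held 16 YCAY and the second run 13. Of the 4888 windows of 222 nt that tile the Dab1 introns outside all clusters, 96.9% held at least 1 YCAY and 0.0205% held 16 or more. Of the 3598 windows of 300 nt, 99% held at least 1 and 0.695% held 13 or more. No motif lay in the 27 bases of 7b within the first cluster or in the 54 bases of 7c, so the capitals fall in the intron sequence on their sides.

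Further Dab1 clusters show how different the bound sequences were. The highest NOVA2 cluster of the gene, with 338 tags, lies in the first intron at chr4:103298843-103299260, and the 200 bases of it richest in YCAY are chr4:103298994-103299193. The fourth highest, with 201 tags, lies near the 3' end at chr4:104407134-104407535, and its richest 300 bases are chr4:104407214-104407513. The cluster with the most YCAY of all, at chr4:104132811-104133138, had 38 tags, and its richest 300 bases are chr4:104132816-104133115:
Dab1, first intron: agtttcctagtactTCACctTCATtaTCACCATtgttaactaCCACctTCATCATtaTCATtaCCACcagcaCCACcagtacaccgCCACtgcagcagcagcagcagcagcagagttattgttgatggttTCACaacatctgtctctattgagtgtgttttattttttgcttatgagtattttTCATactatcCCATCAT
Dab1, near the 3' end: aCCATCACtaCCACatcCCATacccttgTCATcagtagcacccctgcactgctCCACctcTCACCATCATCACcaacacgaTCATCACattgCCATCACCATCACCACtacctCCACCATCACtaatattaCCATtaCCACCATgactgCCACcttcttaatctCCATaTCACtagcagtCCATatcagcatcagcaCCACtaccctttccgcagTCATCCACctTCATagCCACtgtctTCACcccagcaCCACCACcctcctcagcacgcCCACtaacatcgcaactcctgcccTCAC
Dab1, most YCAY: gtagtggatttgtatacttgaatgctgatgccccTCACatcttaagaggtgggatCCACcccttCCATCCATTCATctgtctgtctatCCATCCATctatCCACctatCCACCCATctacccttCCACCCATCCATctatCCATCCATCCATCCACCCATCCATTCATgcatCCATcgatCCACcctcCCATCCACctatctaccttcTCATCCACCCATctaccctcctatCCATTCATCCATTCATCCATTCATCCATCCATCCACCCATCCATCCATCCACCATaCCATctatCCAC
These runs held 15, 37 and 43 YCAY. The last of them is largely a tandem repeat of the motif. Windows of the same length with as many YCAY were 1 of 5437, 0 of 3598 and 0 of 3598 in the Dab1 introns outside clusters, where 95.8% of the 200 nt windows held at least 1. These runs were picked for their motifs and the windows were not, so the counts describe the runs and test nothing.

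From the other genes, the highest intron clusters of Fyn (chr10:39115583-39115809, plus strand, 98 NOVA2 tags) and Reln (chr5:21676831-21676987, minus strand, 35 NOVA2 tags) are given with the higher of both Crkl clusters (chr16:17456089-17456165, plus strand, 12 NOVA2 tags). The Reln coding sequence bound by NOVA1 alone (chr5:21448422-21448575, minus strand, 91 NOVA1 tags) is set beside them for contrast:
Fyn, intron: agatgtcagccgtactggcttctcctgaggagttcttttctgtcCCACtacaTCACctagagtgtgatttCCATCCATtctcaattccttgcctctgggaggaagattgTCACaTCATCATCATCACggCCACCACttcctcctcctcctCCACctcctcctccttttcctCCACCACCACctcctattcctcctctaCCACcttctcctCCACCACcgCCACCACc
Reln, intron: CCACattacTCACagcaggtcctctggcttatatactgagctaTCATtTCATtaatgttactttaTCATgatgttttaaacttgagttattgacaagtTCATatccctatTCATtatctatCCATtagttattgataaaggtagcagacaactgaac
Reln, coding sequence: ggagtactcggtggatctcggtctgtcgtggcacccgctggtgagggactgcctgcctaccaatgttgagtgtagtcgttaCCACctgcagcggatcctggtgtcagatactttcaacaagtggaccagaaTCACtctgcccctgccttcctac
Crkl, intron: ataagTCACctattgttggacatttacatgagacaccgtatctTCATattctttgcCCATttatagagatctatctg
They held 20, 8, 2 and 3 YCAY. As many or more were found in 0 of 832 windows of the Fyn introns, 0.964% of 2801 windows of the Reln introns, 70.4% of 2855 windows of the Reln introns and 13.8% of 391 windows of the Crkl introns, each at the length of the run shown. At least 1 YCAY was held by 97.6%, 91.0%, 90.3% and 69.8% of these windows.

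The clusters on either side of a cassette exon of Lrp8 and the 30 bases richest in YCAY of the strongest 3' UTR clusters of Lrp8, Vldlr and Crk complete the set. The Lrp8 runs are chr4:107518466-107518545 (NOVA1), chr4:107519509-107519689 (NOVA2) and chr4:107549243-107549272 (3' UTR), the Vldlr run is chr19:27324663-27324692 and the Crk run is chr11:75519367-75519396, all on the plus strand:
Lrp8, before the cassette exon: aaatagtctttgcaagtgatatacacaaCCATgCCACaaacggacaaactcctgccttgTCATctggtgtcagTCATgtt
Lrp8, after the cassette exon: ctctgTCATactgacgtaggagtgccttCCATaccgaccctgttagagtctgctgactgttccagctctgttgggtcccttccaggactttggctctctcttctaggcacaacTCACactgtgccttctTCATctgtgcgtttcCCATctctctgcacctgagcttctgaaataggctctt
Lrp8, 3' UTR: ggtcCCATtaaCCATttctgctcttgTCAT
Vldlr, 3' UTR: tcTCATgagttttcttactttgTCATCCAT
Crk, 3' UTR: aattttaattttCCACaagtaacattTCAC
They held 4, 5, 3, 3 and 2 YCAY. In windows of the same length in the introns of the same gene, at least 1 YCAY was found in 70.3%, 95.1%, 37.1%, 35.8% and 30.1%, and as many or more in 6.90%, 23.4%, 1.65%, 0.631% and 6.56%. The 30 nt windows were picked for their motifs, so their counts describe them and test nothing.

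Across the 7 genes, clusters of NOVA2 outnumbered those of NOVA1 by 156 to 39. Dab1 alone held 120 of the NOVA2 clusters, 76.9% (Wilson 95% interval 69.7 to 82.8, counting error only, as for all intervals here), and 23 of the NOVA1 clusters. At least 1 NOVA2 cluster was found in each of the 7 genes, and at least 1 NOVA1 cluster in 6, Crkl being the exception. Among all 22380 annotated protein-coding genes, not matched for expression or span, 22.7% held a NOVA2 cluster and 12.7% a NOVA1 cluster. No cluster lay antisense within the gene spans (0 clusters), and 0 lay within 10 kb outside them on the same strand. The 3 Reelin genes of longest span, Dab1, Reln and Fyn, were also those with most NOVA2 clusters.

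**Figure D1:**
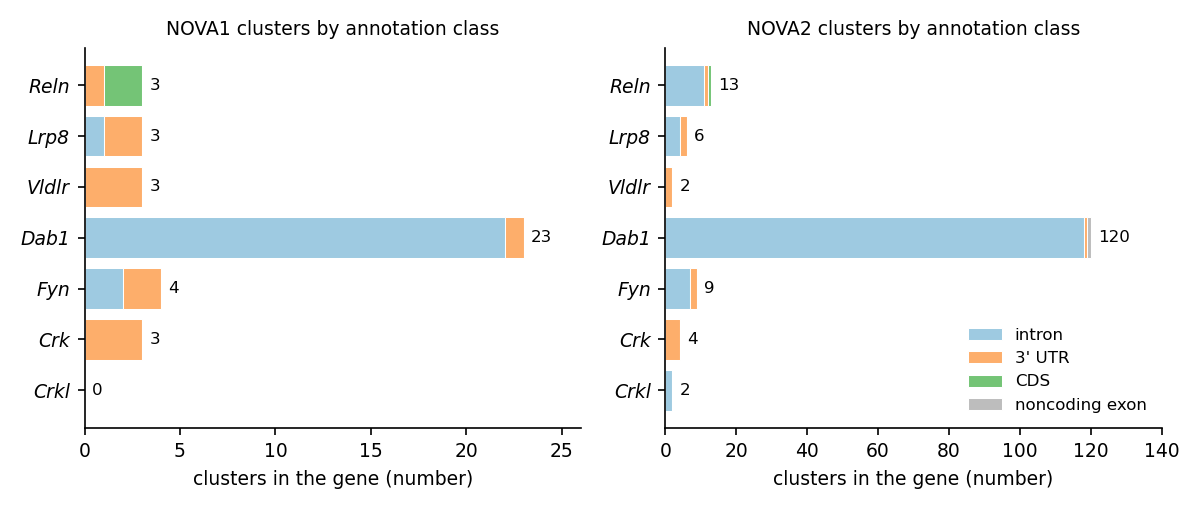
Number of NOVA1 clusters (left) and NOVA2 clusters (right) in each of the 7 genes, in stacked bars by the annotation class that covers most of the cluster, with the total beside each bar. Dab1 holds 23 and 120 clusters, nearly all in introns, whereas the clusters of Vldlr and Crk lie in the 3' UTR.

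Of the NOVA2 clusters, 142 of 156 lay in introns, 91.0% (85.5 to 94.6), beside 74.6% of the whole NOVA2 list. Of the NOVA1 clusters, 25 of 39 lay in introns, 64.1% (48.4 to 77.3), beside 40.3% of the whole NOVA1 list. Dab1 set both values, since 118 of its 120 NOVA2 clusters and 22 of its 23 NOVA1 clusters were intronic. Without Dab1, 24 of 36 NOVA2 clusters (66.7%, 50.3 to 79.8) and 3 of 16 NOVA1 clusters (18.8%, 6.59 to 43.0) lay in introns, below the shares of the whole lists, which both intervals take in. In 3' UTRs lay 12 of 39 NOVA1 and 12 of 156 NOVA2 clusters, beside 37.7% of all NOVA1 and 12.1% of all NOVA2 clusters. For each protein, 1 of these 12 lies in a Dab1 intron and took its class from another annotated gene. Coding sequence held 2 NOVA1 clusters and 1 NOVA2 cluster, all in Reln.

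NOVA1 clusters mostly lay where NOVA2 also did. Overlap of at least 1 nt with a NOVA2 cluster was seen for 35 of 39, 89.7% (76.4 to 95.9), beside 80.1% of all NOVA1 clusters. The comparison was not matched for class, and introns held more of these clusters (64.1%) than of the list (40.3%). In introns alone, 22 of 25 overlapped, beside 95.5% of all NOVA1 intron clusters. In the other direction, 36 of 156 NOVA2 clusters overlapped a NOVA1 cluster, 23.1% (17.2 to 30.3), beside 22.1% of all NOVA2 clusters. This value joins 22 of 120 in Dab1 (18.3%) with 14 of 36 in the other 6 genes (38.9%, 24.8 to 55.1), which lies above the list. The split was chosen after seeing the data, and the part of annotation class in it was not tested. When only as many NOVA2 clusters were kept as there were NOVA1 clusters, taking those with most tags, 26 of 39 NOVA1 clusters (66.7%) and 25 of 55 NOVA2 clusters (45.5%) overlapped. The rule also changes the shares of the whole lists, which were not computed under it. These values therefore have no background and cannot be set against 80.1% and 22.1%. The 4 NOVA1 clusters without NOVA2 overlap were 1 in Reln, 1 in Lrp8 and 2 in Dab1.

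In Reln, which encodes the ligand and spans 460 kb on the minus strand (chr5:21390272-21850523), both proteins had clusters in exons and NOVA2 alone had them in introns. NOVA2 had 13 clusters, of which 11 were in introns with 10 to 35 tags, and 0 of these 11 overlapped a NOVA1 cluster. Among all NOVA2 intron clusters that share was itself low, 2.25% at 10 to 19 tags and 12.8% at 20 to 49 tags, so the count is near the background. NOVA1 had 3 clusters, of which 0 were in introns. Both proteins bound the 3' UTR, where the NOVA1 cluster at chr5:21390740-21390966 had 31 tags and the NOVA2 cluster at chr5:21390764-21391026 had 47, the highest NOVA2 count in the gene. This pair had 1 YCAY each.

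The second shared site of Reln lay on a coding exon of 97 nt (chr5:21611827-21611923) that an annotated transcript skips. The NOVA1 cluster there had 17 tags and covered 78 nt of the exon, and the NOVA2 cluster had 12 tags and covered 65 nt, with 3 YCAY in each. The highest NOVA1 cluster of the gene, 91 tags in coding sequence at chr5:21448422-21448575, overlapped no NOVA2 cluster although the NOVA2 list is the longer, and its sequence had 0 near-identical copies elsewhere in the genome. The highest NOVA2 intron clusters were that of 35 tags shown above, 40 nt from the nearest annotated exon, and one of 28 tags at chr5:21764634-21764740 that lies 27970 nt from an exon. Each held 8 YCAY. The NOVA2 intron cluster of 18 tags at chr5:21671821-21671891 had 4 near-identical copies elsewhere.

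Lrp8, the receptor gene at chr4:107474866-107549445, had the highest cluster of both proteins among the 7 genes. At the end of the 3' UTR, NOVA1 had 234 tags over chr4:107549221-107549424 and NOVA2 had 442 over chr4:107549209-107549443. The site thus held 234 of the 277 NOVA1 tags and 442 of the 532 NOVA2 tags of the gene. Also in the 3' UTR, a NOVA1 cluster of 12 tags overlapped a NOVA2 cluster of 10.

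The intron clusters of Lrp8 had fewer tags and none was shared. Of all intron clusters, 95.5% for NOVA1 and 14.1% for NOVA2 were shared. For NOVA2 the share was 2.25% at 10 to 19 tags and 12.8% at 20 to 49 tags, so the lack of shared NOVA2 clusters is near the background. In Lrp8 introns NOVA2 had 4 clusters, with 33 tags at chr4:107539647-107539791, 17 at chr4:107516195-107516276 (245 nt from an exon) and 15 each at chr4:107519509-107519689 and chr4:107522015-107522112. NOVA1 had 1, with 31 tags. A cassette exon of 381 nt (chr4:107518844-107519224) was flanked by clusters of different proteins: the NOVA1 cluster ended 298 nt before it, and a NOVA2 cluster of 15 tags began 284 nt after it. Of the 5 annotated cassette exons of Lrp8, the other 4 had no cluster within 1000 nt.

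Vldlr, the other receptor gene (chr19:27290974-27328721), had clusters in its 3' UTR alone, and all of them were shared. A NOVA2 cluster of 188 tags at chr19:27324494-27324757 overlapped NOVA1 clusters of 68 and 10 tags, at chr19:27324488-27324595 and chr19:27324604-27324700. Further along, NOVA2 had 24 tags at chr19:27326854-27326991 where NOVA1 had 14.

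Dab1 encodes the adaptor that Reelin signalling phosphorylates, and its span of 1125486 nt (chr4:103291964-104417449) is the longest of the 7. Its 120 NOVA2 clusters ranked 22nd and its 23 NOVA1 clusters 26th among the 22380 protein-coding genes. A longer gene has more room for clusters. Per 100 kb of span Dab1 held 10.7 NOVA2 clusters, rank 165 of the 2401 genes of at least 100 kb, whose median was 1.26. Reln held 2.82 per 100 kb and Fyn 4.58. The genes whose numbers of intron and exon clusters of both proteins were most like those of Dab1 were Lphn3 (105 NOVA2 and 20 NOVA1 intron clusters), Ppfia2 (86 and 18) and Csmd1 (158 and 36), at distances of 0.62, 0.89 and 0.90 over the 4 log2 counts. The genes most like Reln were Gabbr2, Nell1 and Tsc22d1, at 0.32, 0.42 and 0.42.

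Clusters lay along the whole of Dab1. Before the start of the transcripts that carry the full coding sequence, 748 kb, reached among Dab1 transcripts by longer ones alone, held 83 NOVA2 clusters, 11.1 per 100 kb, and 14 NOVA1 clusters. The remaining 377 kb held 37 NOVA2 clusters, 9.81 per 100 kb, and 9 NOVA1 clusters. The counts of the 748 kb include the pair that took its 3' UTR class from another annotated gene of the same strand. The first intron of 332 kb alone held 38 NOVA2 clusters with 1782 of the 5210 NOVA2 tags of the gene and 7 NOVA1 clusters with 129 of its 403 NOVA1 tags. Between neighbouring NOVA2 clusters the median gap was 5.57 kb and the longest 52.6 kb, and 29 of 119 gaps were 1 kb or less. Median tag counts were alike before and after that start, 22 and 23 for NOVA2.

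**Figure D2:**
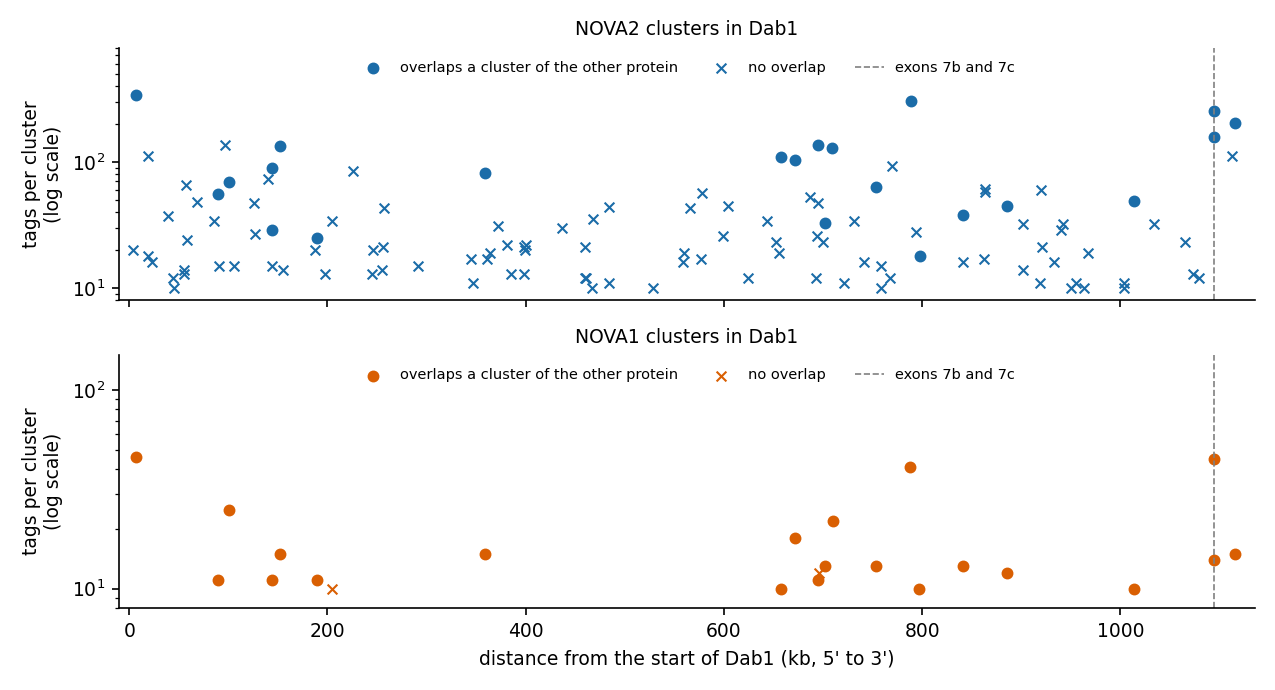
Tag count (log axis) of each NOVA2 cluster (top) and NOVA1 cluster (bottom) against its distance from the start of Dab1 in kb. Circles overlap a cluster of the other protein and crosses do not, and the dashed line marks exons 7b and 7c, where NOVA2 had 251 and 158 tags and NOVA1 45 and 14.

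Most Dab1 clusters lay far from exons. Of the 120 NOVA2 clusters, 94 were over 10 kb from the nearest exon, with a median distance of 43.9 kb. Within 500 nt of an exon there were 4 of 118 NOVA2 intron clusters (3.39%) and 2 of 22 NOVA1 intron clusters, beside 10.4% and 12.7% of all intron clusters of the lists. Dab1 has 1117533 nt of intron in 26 introns, so little of that length lies within 500 nt of an exon. The shares were not scaled to intron length and show no deficit near exons. Those 4 NOVA2 clusters were the pair at exons 7b and 7c, a cluster of 111 tags at chr4:104404864-104405140 that began 78 nt after an exon near the 3' end and overlapped no NOVA1 cluster, and a cluster of 19 tags at chr4:103851247-103851369 beside a noncoding exon. For the 7 genes together, 7 of 142 NOVA2 intron clusters (4.93%) and 3 of 25 NOVA1 intron clusters (12%) were this near to an exon.

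Exons 7b and 7c were not named as such in the annotation. They were taken to be the exons of 51 nt (chr4:104386227-104386277) and 54 nt (chr4:104386369-104386422) that one annotated coding transcript of Dab1 includes and another skips. With a difference of 6 nt in the exon before, from 60 to 54 nt, the coding sequence of the transcript that includes them is 99 nt (33 codons) longer, so the reading frame is kept. The intron before 7b is 25179 nt long, 91 nt separate 7b from 7c, and 4392 nt follow 7c.

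At this pair both proteins had clusters, and the NOVA2 cluster before 7b was the third highest of the 120. It began 195 nt before 7b, ended inside the exon after 27 nt, and had 251 tags. The NOVA1 cluster there ran from 194 nt before 7b to the same last base, with 45 tags, the second highest NOVA1 count of the gene after 46. The second NOVA2 cluster, the fifth highest with 158 tags, began 2 nt after 7b, covered the 54 nt of 7c and reached 181 nt beyond it. The NOVA1 cluster inside it covered 45 nt of 7c and had 14 tags.

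Between the exons that flank the pair there were 2 more NOVA2 clusters, with 13 and 12 tags, which ended 20713 and 14954 nt before 7b. No NOVA1 cluster was listed there. Clusters within 1000 nt of 7b and 7c thus held 59 of 403 NOVA1 tags (14.6%) and 409 of 5210 NOVA2 tags (7.85%) of Dab1. Both totals leave out sites under 10 tags, which weighs more on NOVA1. The shares therefore do not compare how concentrated each protein was at these exons. Site by site, NOVA1 over NOVA2 in log2 stood at -2.48 for the clusters at 7b and -3.50 for those at 7c. The median Dab1 intron pair stood at -2.43. The other annotated cassette exons of the gene had no cluster within 1000 nt.

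YCAY was dense around the pair. In the 200 nt before 7b there were 16 motifs, 8.12 per 100 start positions, and in the 91 nt between the exons 7, or 7.95 per 100. The next 200 nt upstream held 4 (2.03 per 100), and the introns before and after the pair as a whole held 1.89 and 1.44 per 100. After 7c, the first 200 nt held 6 (3.05 per 100) and the following 200 nt held 0. Exon 7b held 1 motif and 7c held 0.

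**Figure D3:**
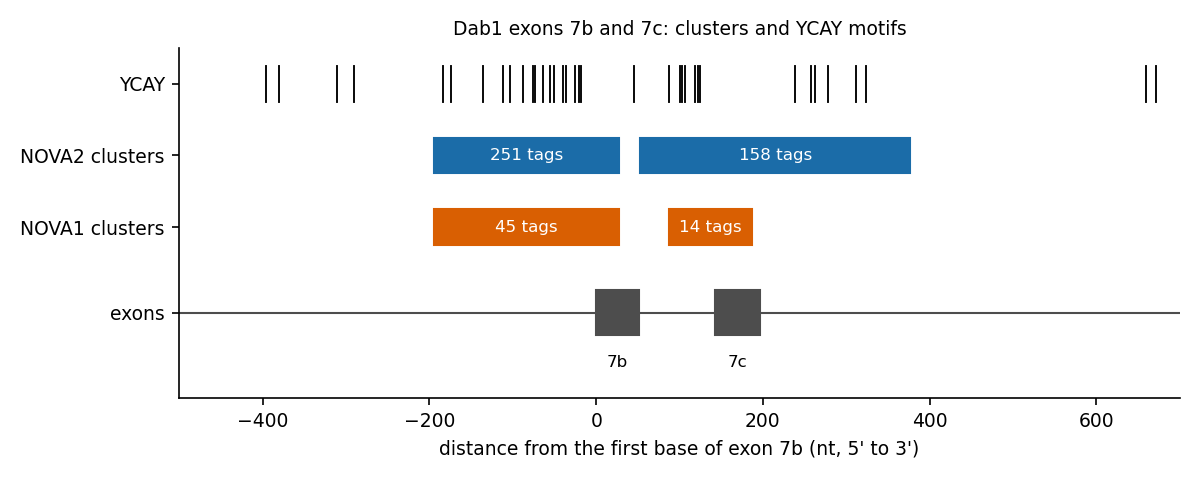
Exons 7b and 7c of Dab1 (boxes, bottom row), NOVA1 and NOVA2 clusters with their tag counts (bars, middle rows) and each YCAY motif (ticks, top row), by distance in nt from the first base of 7b. The motifs crowd in the 200 nt before 7b, where 16 lie, and in the 91 nt between the exons, where 7 lie.

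Elsewhere in Dab1 the highest clusters were intronic and shared. NOVA2 had 338 tags in the first intron, where the NOVA1 cluster at chr4:103298980-103299183 had 46, the highest NOVA1 count of the gene. NOVA2 had 303 tags at chr4:104079995-104080341, where NOVA1 had 41 at chr4:104080001-104080224. At the site of 201 NOVA2 tags near the 3' end NOVA1 had 15. Clusters without a NOVA1 partner reached 136 tags, at chr4:103388504-103388788, with 22 YCAY.

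Overlap with NOVA1 rose with the NOVA2 tag count. Of the Dab1 NOVA2 clusters with 10 to 19 tags, 1 of 50 overlapped a NOVA1 cluster, of those with 20 to 49 tags 6 of 43, of those with 50 to 99 tags 5 of 14, and of those with 100 or more 10 of 13. These are 2.0%, 14.0%, 35.7% and 76.9%, beside 2.25%, 12.8%, 47.4% and 84.8% of all NOVA2 intron clusters in the same tag classes. Over the introns of the 7 genes, all NOVA1 intron clusters but 3 overlapped a NOVA2 cluster, that is 22 of 25, beside 95.5% of all NOVA1 intron clusters, and 23 of 142 NOVA2 intron clusters overlapped a NOVA1 cluster, beside 14.1% of all. The NOVA1 clusters of Dab1 without a partner had 10 tags (chr4:103496372-103496475) and 12 tags (chr4:103988152-103988260).

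Some Dab1 clusters carried limits of their own. The pair of 129 NOVA2 tags (chr4:104001227-104001548) and 22 NOVA1 tags lies in a Dab1 intron, but its class of 3' UTR came from another annotated gene of the same strand, so its tags cannot be told apart between both genes. A NOVA2 cluster of 16 tags (chr4:103850961-103851117) lay on an exon of a noncoding Dab1 transcript. Near-identical copies of the cluster sequence elsewhere in the genome were found for 2 NOVA1 and 3 NOVA2 clusters of Dab1, and without all such clusters the 7 genes held 37 NOVA1 and 150 NOVA2 clusters.

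Fyn, which encodes the kinase (chr10:39088661-39285187), had 9 NOVA2 and 4 NOVA1 clusters, and all 4 NOVA1 clusters were shared. The highest was the intron cluster of 98 NOVA2 tags shown above, where NOVA1 had 11 tags at chr10:39115641-39115713. It was followed within 300 nt by NOVA2 clusters of 10 tags (11 YCAY) and 14 tags (10 YCAY), whose sequences had 77 and 9 near-identical copies elsewhere, while that of 98 tags had 0. A second shared intron site had 66 NOVA2 tags at chr10:39200450-39200579 and 20 NOVA1 tags, 25508 nt from an exon. In the 3' UTR, NOVA1 had 25 tags where NOVA2 had 16, and 20 where NOVA2 had 21. The 3 annotated cassette exons of Fyn had no cluster within 1000 nt.

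Crk and Crkl, which encode related adaptors that bind phosphorylated DAB1, differed in their clusters. All Crk clusters lay in the 3' UTR (gene span chr11:75492761-75520410), with 17 NOVA1 and 22 NOVA2 tags at the first site, 39 and 26 at the second, and 63 NOVA1 tags at chr11:75519354-75519537 over NOVA2 clusters of 15 and 54 tags. Crkl (chr16:17452080-17486348) had 2 NOVA2 clusters, with 12 and 11 tags, both in introns and just above the threshold of 10. With lower counts than any other member, Crkl gave 23 NOVA2 tags in all and no listed NOVA1 cluster. Clusters under 10 tags are not in the lists.

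Where clusters of both lists overlapped one to one, the tag ratio could be compared site by site. In introns there were 21 such pairs in the 7 genes, 19 of them in Dab1, and NOVA2 had more tags at each of the 21. On the log2 scale, NOVA1 tags over NOVA2 tags had a median of -2.43, with a range of -3.74 to -0.85. Over all 3452 intron pairs of the lists it was -2.04, and NOVA1 was higher in 2.03% of them. In 3' UTRs the median of 9 pairs was -0.37, from -2.55 to 0.64, and NOVA1 had more tags in 3 of 9. Over all 2146 3' UTR pairs the median was -0.40, with NOVA1 higher in 32.2%. For scale, the log2 ratio of all tags in both lists was -2.10, which is a ratio of sums over thresholded clusters and not of library depths. Scaled to totals of unique tags, 10 NOVA1 tags correspond to about 25 NOVA2 tags, a log2 ratio of -1.32. Below it lay 19 of the 21 intron pairs and 1 of the 9 3' UTR pairs, beside 75.8% and 15.4% of all such pairs in the lists. The lowest 3' UTR value is the pair inside the Dab1 intron, and the only coding pair, in Reln, had 0.50.

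**Figure D4:**
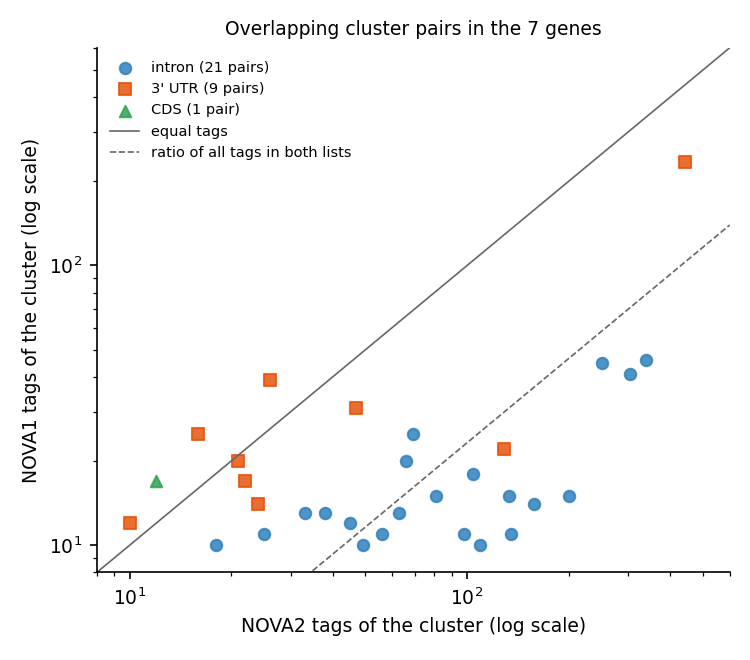
NOVA1 against NOVA2 tags (log axes) of the 31 pairs of clusters that overlap one to one in the 7 genes, by annotation class. The solid line marks equal tags and the dashed line the ratio of all tags in both lists, 4.30 to 1. Intron pairs (circles) all lie below the solid line, and 3 of 9 3' UTR pairs (squares) lie above it.

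Tag counts as a whole were close to those of the lists. The 156 NOVA2 clusters had a median of 21 tags (quartiles 14 and 44.25) beside 18 for the whole list, and the 39 NOVA1 clusters a median of 15 beside 16. Dab1 had a NOVA2 median of 22.5, Reln 12, Lrp8 16 and Fyn 15. Together the 7 genes held 6597 NOVA2 tags, 0.504% of the list, and 1106 NOVA1 tags, 0.363%.

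All clusters of the 7 genes, 156 NOVA2 and 39 NOVA1, held at least 1 YCAY, as did 99.3% and 98.1% of all clusters. NOVA2 clusters held 4.95 YCAY per 100 start positions against 2.04 in flanks 200 to 500 nt from either end, a ratio of 2.43 (exact 95% interval 2.25 to 2.63, counting error only). Over the whole NOVA2 list the ratio was 2.29. NOVA1 clusters held 5.37 against 1.98 per 100, a ratio of 2.71 (2.32 to 3.15), beside 2.02 over the whole NOVA1 list. Dab1 carried both values: without it the ratios were 1.39 (1.03 to 1.87) for NOVA1 and 2.14 (1.79 to 2.55) for NOVA2, below those of the lists, although the NOVA2 interval takes in the value of its list. Against the introns of the same genes outside all clusters, which held 1.76 per 100, the ratios were 2.81 (2.64 to 2.99) for NOVA2 and 3.04 (2.69 to 3.43) for NOVA1.

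Motif density differed with the class of sequence and with sharing. Intron clusters held 5.18 YCAY per 100 for NOVA2 and 7.21 for NOVA1, and exon clusters 2.92 and 2.81. The ratio over flanks was 2.55 (2.35 to 2.76) and 3.52 (2.94 to 4.21) in introns and 1.43 (1.05 to 1.92) and 1.51 (1.1 to 2.04) in exons. The exon clusters include the pair that lies in a Dab1 intron and took its 3' UTR class from another gene. That pair held 17 of the 61 NOVA2 and 12 of the 60 NOVA1 motifs of the exon clusters. Exon ratios without it were not computed, so these values do not describe exons of the 7 genes alone. Among the NOVA2 clusters of Dab1, the 22 shared with NOVA1 held 6.93 per 100, a ratio over flanks of 3.71 (3.13 to 4.41). The 98 others held 4.45, a ratio of 2.15 (1.94 to 2.38). These intervals count each motif as independent, although motifs share bases and repeat within clusters, so they are too narrow to compare the 2 sets. By cluster the difference was smaller, with medians of 5.65 per 100 in shared and 4.20 in other clusters. Shared clusters were also those with more tags, and the part of tag count in this difference was not tested.

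By gene, the ratio for NOVA2 was 2.51 (2.30 to 2.73) in Dab1, 2.57 (1.85 to 3.53) in Fyn, 2.19 (1.60 to 2.97) in Reln and 1.86 (1.18 to 2.87) in Lrp8. In Vldlr, Crk and Crkl, with 2 to 4 NOVA2 clusters each, the intervals reached below 1. For NOVA1 the ratio was 3.71 (3.08 to 4.46) in Dab1, 2.57 (1.34 to 4.82) in Lrp8 and 3.14 (1.34 to 7.02) in Vldlr. In Reln it was 0.589 (0.204 to 1.40), in Fyn 1.01 (0.497 to 1.87) and in Crk 1.35 (0.673 to 2.55). The intervals of the 6 genes other than Dab1 rest on few clusters and overlap one another.

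**Figure D5:**
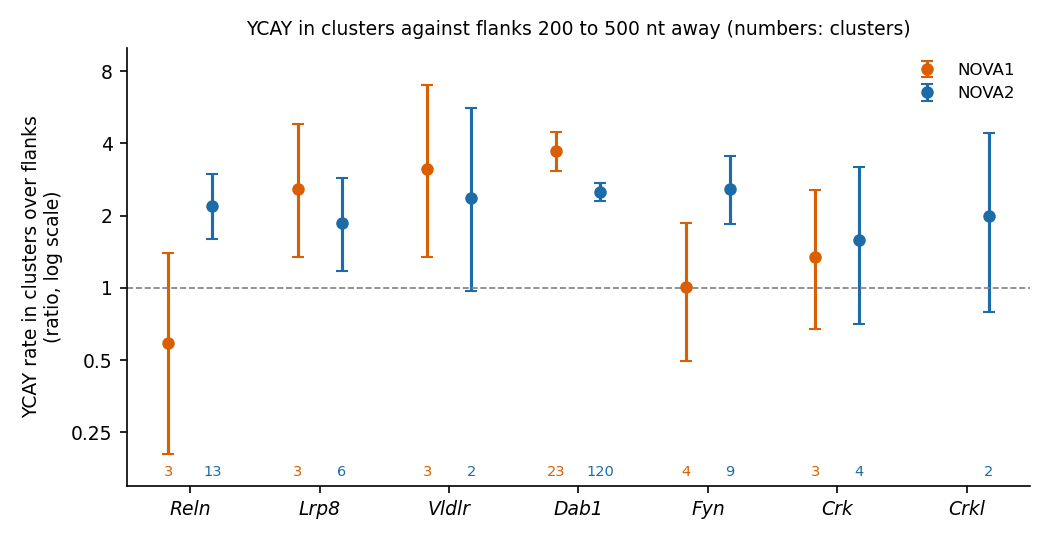
Ratio of the YCAY rate in clusters to that in flanks 200 to 500 nt away (log axis) for each gene and protein, with exact 95% intervals that cover counting error only and the number of clusters at the foot. The dashed line marks equal rates. Dab1 lies above it for both proteins, at 3.71 for NOVA1 and 2.51 for NOVA2, and Reln falls at 0.589 for NOVA1 and 2.19 for NOVA2.

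Each of the 4 forms of the motif was denser in clusters than in flanks. In the NOVA2 clusters of the 7 genes, UCAU was the most frequent, with 1.94 per 100 positions and a ratio of 3.08 (2.71 to 3.50), followed by CCAU with 2.33 (2.0 to 2.71), UCAC with 2.08 (1.73 to 2.48) and CCAC with 1.97 (1.64 to 2.35). In the NOVA1 clusters the ratios were 3.31 for UCAU (2.52 to 4.33), 2.68 for CCAU (1.97 to 3.63), 2.50 for UCAC (1.76 to 3.50) and 2.18 for CCAC (1.53 to 3.08), with intervals that overlap.

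Of 39 annotated further genes listed for the Reelin pathway, 27 (69.2%) held a NOVA2 cluster and 19 (48.7%) a NOVA1 cluster, beside the 22.7% and 12.7% of all protein-coding genes. Clusters of both proteins were found in 17 and of neither in 10. The shares of all genes were not matched for expression in the cortex or for span. The difference is therefore not a measure of enrichment in the pathway. Cdh2, the gene of N-cadherin, held 46 NOVA2 and 10 NOVA1 clusters, and Gsk3b, which encodes a kinase that phosphorylates tau, held 20 and 8. Pafah1b1, the lissencephaly gene Lis1, held 11 NOVA2 and 6 NOVA1 clusters. It is not next by rank, since other genes of the list, not named here, held more NOVA2 clusters.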

How the data were processed

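HITS-CLIP tags of NOVA1 and NOVA2 from wild-type CD1 cortex at embryonic day 18.5 were aligned by the authors to mm9 with novoalign (version not given in the sources used here), and PCR duplicates were removed. The deposited lists give a tag count per cluster, pooled over 3 libraries per protein and not scaled, for clusters of at least 10 tags found in at least 2 libraries. Depth per library is not in the lists.

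Cluster positions (from 1) were compared with NCBIM37, the same assembly. Spans and classes came from GENCODE vM1. A cluster took the class covering most of its bases, with precedence coding sequence before 3' UTR, then 5' UTR, noncoding exon and intron. Copies elsewhere were BLAST+ 2.17.0 matches that covered 50% or more of a cluster with an identity of 90% or more. Shares have Wilson and motif ratios exact 95% intervals. Analyses ran in Python 3.11.15 with pysam 0.24.0, SciPy 1.17.1, pandas 2.3.3 and NumPy 2.4.6, and functions were tested on simulated data.

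Named clusters were the 3 highest NOVA2 and 2 highest NOVA1 per gene, those between the exons flanking 7b and 7c, NOVA1 clusters without overlap, and those within 1000 nt of a cassette exon. Similarity of genes was the Euclidean distance over log2(count + 1) of intron and exon clusters of each protein. Other clusters, and Pafah1b1, were chosen after their values were seen. Members and lists were chosen with earlier results of these data known. Alternatives were other spans, strands, overlaps, tag thresholds, class rules and motif backgrounds. The RNA-seq data were not analysed here, and 1 further pathway gene is not reported here by name.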

Additional observations from a re-analysis of the deposited data

How the results depend on the processing

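Of 42 alternatives tried on the values above, 25 left the value within 1.5 times (counts), within its interval (shares and ratios) or within its quartiles (the median tag count), and 17 moved it further. With at least 20 tags, NOVA1 clusters fell to 15 and NOVA2 clusters to 84, the intron share of NOVA1 to 40%, the share of NOVA2 clusters overlapping NOVA1 (both lists at that threshold) to 14.3%, while the Dab1 share rose to 83.3% and the YCAY ratio to 2.66. With at least 25 tags for NOVA2, 66 clusters remained in the count, and the overlaps were 71.8% of NOVA1 and 42.4% of NOVA2 clusters. With the NOVA2 list at the length of the NOVA1 list they were 66.7% and 45.5%. Overlap shares of the whole lists were not computed at these tag thresholds or at this length, so these overlaps have no background. The YCAY ratio was 2.71 with flanks of 500 to 1000 nt and 2.81 against introns outside all clusters. Without Dab1, an alternative chosen after seeing the data, the intron shares were 18.8% (NOVA1) and 66.7% (NOVA2), the overlap of NOVA2 clusters 38.9% and the YCAY ratio 2.14, and the intron shares and this ratio then lay below the values of the whole lists (40.3%, 74.6% and 2.29) instead of above them. Wider spans and either strand changed no count, and leaving out clusters with near-identical copies, also chosen after seeing the data, left 37 and 150.

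No paired analysis was possible because the deposited lists pool the replicates of each protein and no value carries a replicate number, and for the same reason leaving out 1 library was not run. Clusters under 10 tags were not analysed here, so a gene without a cluster is one without a listed cluster. The threshold weighs more on NOVA1, whose list holds fewer tags.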
